A study of Mus musculus with 6 samples.

Results

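The genes described here copy the chromosomes, pull them apart and time both events, and their levels were read in newborn mouse radius and ulna. They were taken by name from the probe sets that carried exactly 1 gene symbol: the Mcm helicase genes, the Rrm, Rfc, Pold, Smc, Ncap, Cenp, Aurk, Bub and Plk families, cyclins, cyclin-dependent kinases (CDKs), genes with a Cdc name, and H2ax, Mki67, Pcna and Top2a. This gave 56 genes on 57 probe sets, out of 5780 named genes and 8997 probe sets. Where a gene had more than 1 probe set, the brightest stood for it. Members of the Orc and Gins families were not analysed here. The Cdc names go back to yeast mutants that stopped in the division cycle. Set apart here are 14 of the 56 genes that carry a Cdc or Cdk name but in most cases act mainly elsewhere. An example is Cdc42, a GTPase of cell polarity and the actin skeleton. The other 42 genes act mostly in replication, in mitosis or in their timing, and are called the replication and mitosis genes below. This split was made by symbol and follows function only roughly.

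Radii and ulnae were collected from newborn mice of strain 129sv, 3 samples from wild-type mice and 3 from littermates with the del175k mutation of Tnni2, the gene of the troponin I of fast skeletal muscle. Total RNA of each sample was hybridised to 1 single-colour Affymetrix array. The labels do not say how many mice a sample held, whether 1 or both alleles were mutated, or which cells were present, so the spread behind each p-value is that of these samples and may in part be technical. The labels name pairs of littermates, and the fit of the report did not use pairing. Samples are named by group and replicate number.

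In a dividing cell, origins of replication are loaded with the Mcm helicase before S phase, and the helicase is then switched on by CDKs. DNA polymerases work behind it on a sliding clamp, Pcna, while ribonucleotide reductase supplies deoxynucleotides. Cohesin holds the sister copies together until mitotic kinases and the anaphase-promoting complex let them part. Many of these genes are transcribed in waves by E2F factors and by the DREAM and MuvB complexes. In newborn long bone, dividing cells include the columnar chondrocytes of the growth plate, osteoblast precursors and cells of the marrow.

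Some of their promoters hold the sequence words on which this timing rests in textbooks. RefSeq promoters of build GRCm38.p6, which run from 250 bases before to 50 bases after the start of the gene, were found by gene ID for 48 of the 56 genes, as 53 sequences of 300 bases, since some genes have several starts, whose windows can overlap. Entries for Aurkb, Ccna2, Ccnd1, Ccnd2, Cdc23, Cdc42bpg, Cdk5 and H2ax were not used. Words were searched on both strands: TTTCCCGC, TTTCGCGC, TTTGCCGC and TTTGGCGC for E2F, TTTGAA and TTCGAA for the cell cycle homology region (CHR) bound by MuvB, and CCAAT for the factor NF-Y. The sequences below belong to the helicase genes with the largest and the smallest difference between the groups, to both subunits of ribonucleotide reductase, and to the topoisomerase of mitotic chromosomes. Capitals mark the words, whichever strand they lie on.
Mcm2, chr6:88898731-88899030, minus strand: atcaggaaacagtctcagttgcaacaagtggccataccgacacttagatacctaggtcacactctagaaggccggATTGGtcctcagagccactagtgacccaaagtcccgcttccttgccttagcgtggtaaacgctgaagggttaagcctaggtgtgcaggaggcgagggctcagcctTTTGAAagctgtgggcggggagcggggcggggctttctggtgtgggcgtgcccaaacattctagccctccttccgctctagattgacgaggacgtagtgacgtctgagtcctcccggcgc
Mcm6, chr1:128359656-128359955, minus strand: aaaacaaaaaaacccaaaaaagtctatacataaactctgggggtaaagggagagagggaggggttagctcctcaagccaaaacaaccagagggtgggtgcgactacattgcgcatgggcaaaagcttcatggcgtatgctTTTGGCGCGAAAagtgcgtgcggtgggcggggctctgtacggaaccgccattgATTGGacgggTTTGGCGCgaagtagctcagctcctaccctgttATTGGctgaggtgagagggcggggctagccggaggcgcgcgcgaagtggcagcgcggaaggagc
Rrm2, chr12:24708004-24708303, plus strand: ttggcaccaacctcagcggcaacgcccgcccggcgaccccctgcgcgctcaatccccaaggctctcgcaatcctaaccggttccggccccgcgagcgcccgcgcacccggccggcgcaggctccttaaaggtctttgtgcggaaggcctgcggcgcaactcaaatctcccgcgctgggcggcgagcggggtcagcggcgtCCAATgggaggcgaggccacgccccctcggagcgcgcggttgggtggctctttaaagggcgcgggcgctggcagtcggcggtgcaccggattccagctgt
Rrm1, chr7:102441445-102441744, plus strand: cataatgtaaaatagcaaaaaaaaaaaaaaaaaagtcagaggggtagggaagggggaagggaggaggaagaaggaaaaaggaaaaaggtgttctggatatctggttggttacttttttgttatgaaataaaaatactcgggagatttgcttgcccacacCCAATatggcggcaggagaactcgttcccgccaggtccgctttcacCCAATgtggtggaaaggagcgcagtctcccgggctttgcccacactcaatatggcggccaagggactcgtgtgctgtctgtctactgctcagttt
Top2a, chr11:99024140-99024439, minus strand: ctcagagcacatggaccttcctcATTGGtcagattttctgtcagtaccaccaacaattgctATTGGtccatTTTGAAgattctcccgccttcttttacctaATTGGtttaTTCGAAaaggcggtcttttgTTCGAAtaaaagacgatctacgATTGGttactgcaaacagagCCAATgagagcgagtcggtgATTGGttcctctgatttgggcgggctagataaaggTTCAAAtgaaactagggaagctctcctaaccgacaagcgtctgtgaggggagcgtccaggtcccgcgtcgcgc

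Mcm6 held 3 E2F words, a pair of which overlap to form a single run of capitals, and 2 CCAAT words. Mcm2 held a CHR word and a CCAAT word, and Top2a 4 CHR and 6 CCAAT words. In Rrm1 and Rrm2 the search found CCAAT words and no other. Over the replication and mitosis genes, 12 of 39 promoters (30.8%) held an E2F word, compared with 2.26% of all 32851 promoters of the table and 4.01% of the promoters of genes measured here. For licensing and helicase genes it was 5 of 7 (71.4%), and for the 14 promoters of the genes with other Cdc or Cdk names it was 0. A CHR word was found in 16 of 39 (41.0%), against 19.2% of all promoters and 11.97% of those of measured genes, and CCAAT in 26 of 39 (66.7%), against 37.4% and 36.6%. Among the genes of centromere, checkpoint and mitotic kinases 6 of 10 promoters held a CHR word. These are matches of letters and say nothing about binding.

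Most of these genes had lower levels in mutant bone, but none passed the test by itself. Levels are linear array intensities. Each difference is the mean log2 value of the mutants minus that of the wild-type, and its error is limma's moderated SE. In bulk RNA, fewer cells of a type and less RNA per cell cannot be told apart. Of the 56 genes, 38 had a lower mean in the mutants (67.9%), while 43.3% of all probe sets had. The median difference was -0.20, beside 0.045 for all probe sets. It was -0.072 without mutant replicate 2 and -0.084 without wild-type replicate 3. Among the 42 replication and mitosis genes, 31 were lower and 11 higher, with a median of -0.26. The 14 genes with other Cdc or Cdk names were divided into 7 lower and 7 higher, with a median of 0.038. After median centring 36 of the 42 were lower, as were 51.7% of all probe sets, and after quantile normalization 36 of the 42 and 52.4%.

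After Benjamini-Hochberg adjustment over all probe sets, limma called 0 of the 56 genes at 0.05, as it called 0.0% of all 8997 probe sets. The smallest adjusted p among the genes was 0.591. At an unadjusted p under 0.05 there were 3 lower genes (5.36%), H2ax, Rrm2 and Mcm2, against 1.7% of all probe sets, and 0 higher genes, against 5.74%. The whole mutant group lay under the whole wild-type group in 4 genes (7.14%, against 3.89% of all probe sets), which were H2ax, Rrm2, Pold1 and Ncaph2. The opposite order was seen in 1 gene (1.79%, against 9.18%), Smc3. At least 1 value under an intensity of 20 occurred in 14 of the 56, and folds of such dim genes are less certain because the background correction is unknown. None of the 56 was under 20 on all arrays of a group.

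**Figure D1:**
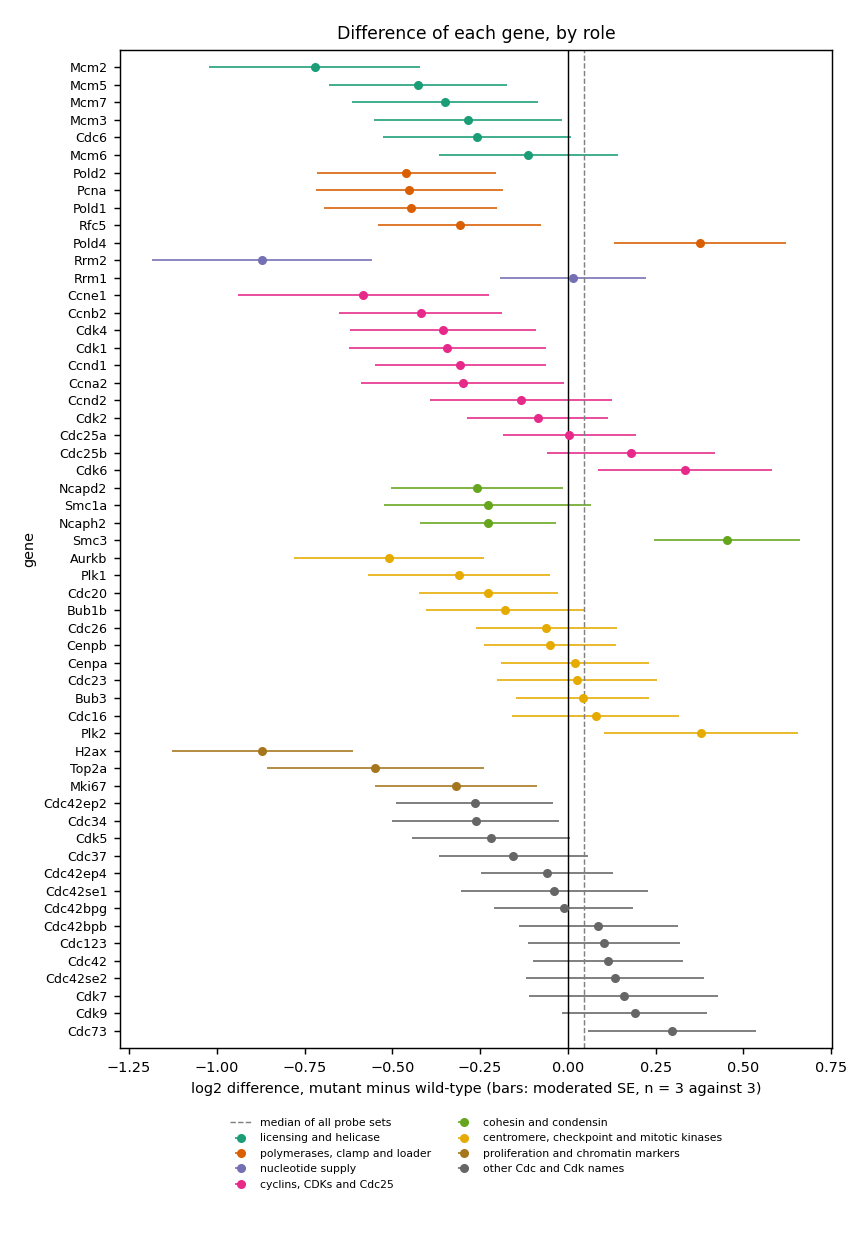
Log2 difference (mutant minus wild-type) of each of the 56 genes, as points coloured by role; bars are moderated SEs (3 arrays against 3); the dashed line is the median of all probe sets, 0.045. Rrm2 and H2ax lie farthest to the left at -0.87, and Smc3 farthest to the right at 0.45. The direction of Rrm1, Cdc25a, Cenpa, Cdc23 and Bub3, all near 0, turned with median centring and with quantile normalization.

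The 6 licensing and helicase genes were lower on average in the mutants without exception, and their median difference was -0.32. Mcm2, a subunit of the replicative helicase, was at 67.5, 48.5 and 92.3 on wild-type arrays 1 to 3 and at 41.1, 29.6 and 55.4 on mutant arrays 1 to 3. Mutant replicates 1 and 2 were below every wild-type array, and mutant replicate 3 was above wild-type replicate 2. The means were 69.4 ± 22.0 and 42.0 ± 12.9 (SD, n = 3 each), a difference of -0.72 ± 0.30 (limma adjusted p = 0.667). Mcm5, another subunit, was at 59.0, 50.9 and 90.4 in the wild-type and 44.9, 43.5 and 57.2 in the mutants (-0.43 ± 0.25). Mcm7 was at 90.5, 59.5 and 118.5, and at 65.2, 76.1 and 62.3 (-0.35 ± 0.26). In Mcm5 and Mcm7 the groups overlapped as well. Mcm3 differed by -0.29, Cdc6, which loads the helicase, by -0.26, and Mcm6 by -0.11. On all 6 genes wild-type replicate 3 was the brightest array. The difference of Mcm6 turned to 0.059 without that array and to 0.051 without mutant replicate 2.

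The subunits of polymerase delta differed in direction. Pold1, its catalytic subunit, was at 27.2, 23.7 and 26.5 in the wild-type and 13.2, 22.8 and 22.3 in the mutants, so that the groups did not overlap (-0.45 ± 0.25). Without mutant replicate 1, the array under 20, the difference was -0.19. Pold2, an accessory subunit, was at 40.2, 40.3 and 37.9, and at 23.1, 24.0 and 42.3 (-0.46 ± 0.26). The wild-type values lay close together, mutant replicates 1 and 2 far below them and mutant replicate 3 above them. Pold4, the small subunit, had a higher mean in the mutants (0.38 ± 0.24), with overlapping groups. Pcna, the sliding clamp, was at 120.5, 126.5 and 190.5 in the wild-type and 101.4, 81.2 and 137.8 in the mutants (-0.45 ± 0.27). A second probe set named Pcna gave nearly the same value on every array and the same difference of -0.45, so the pair is not independent, and signal from near-identical copies of the gene cannot be told apart from its own. Rfc5, of the complex that loads the clamp, differed by -0.31 ± 0.23.

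The subunits of ribonucleotide reductase gave unlike values. Rrm2, the small subunit, whose supply follows S phase, was at 28.3, 25.3 and 49.9 in the wild-type and 18.8, 13.0 and 23.9 in the mutants. No mutant value reached the lowest wild-type value, although mutant replicate 3 came close to wild-type replicate 2. The means were 34.5 ± 13.4 and 18.6 ± 5.46 (SD, n = 3 each), and the log2 difference of -0.87 ± 0.31 equals a 1.83-fold lower geometric mean (limma adjusted p = 0.644). Mutant replicates 1 and 2 were under 20, so this fold is less certain. With an offset of 16 before log2 the difference was -0.53. Rrm1, the large subunit, which is made more evenly through the cycle, was at 64.5, 91.2 and 88.8, and at 77.3, 80.9 and 86.1. Its difference was 0.014 ± 0.21, which turned to -0.042 with median centring and to -0.034 with quantile normalization. The contrast between the subunits was not tested.

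**Figure D2:**
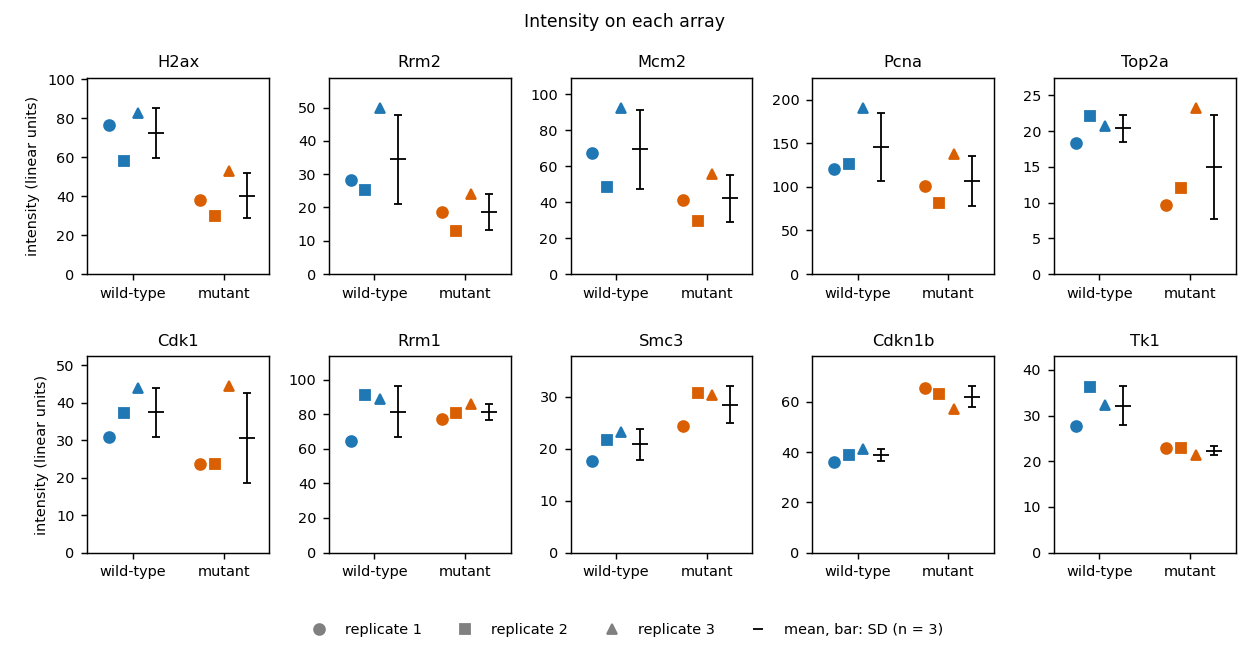
Intensity (linear units) of 10 genes on each array, with a circle, square and triangle for replicates 1, 2 and 3 and the mean with its SD (n = 3) beside each group. Mutant replicate 3 (orange triangle) is the highest mutant array in H2ax, Rrm2, Mcm2, Pcna, Top2a and Cdk1. Cdkn1b and Tk1 lie outside the name rule, and on the probe sets shown their groups do not overlap.

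Of 11 cyclin, CDK and Cdc25 genes, 8 were lower and 3 higher in the mutants, with a median of -0.30. Ccne1, for cyclin E1, which drives entry into S phase, was at 24.97, 23.8 and 49.9 in the wild-type and 19.1, 14.6 and 31.8 in the mutants (-0.58 ± 0.36). Ccnb2, a mitotic cyclin, was at 23.3, 20.8 and 21.1, and at 12.4, 16.1 and 21.4 (-0.42 ± 0.23). Cdk4, the partner of D-type cyclins, was at 312.4, 392.4 and 380.4, and at 200.2, 280.0 and 397.7 (-0.35 ± 0.27). It was at -0.11 without mutant replicate 1 and at -0.60 without mutant replicate 3. In Ccne1, Ccnb2 and Cdk4 mutant replicates 1 and 2 lay below every wild-type array and mutant replicate 3 did not. Cdk1, the kinase of mitosis, showed the same order at 30.9, 37.3 and 43.9 against 23.6, 23.7 and 44.3 (-0.34 ± 0.28). Ccnd1 and Ccna2, for cyclins D1 and A2, differed by -0.31 and -0.30, Ccnd2 by -0.13 and Cdk2 by -0.085. Cdk6, the other kinase that binds D-type cyclins, had a higher mean in the mutants (0.33 ± 0.25), as had the phosphatase gene Cdc25b (0.18). Cdc25a was at 0.0035 and turned to -0.053 with median centring and to -0.077 with quantile normalization.

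Of 4 condensin and cohesin genes, 3 had lower means and 1, Smc3, a higher mean. Ncaph2, of condensin II, was at 69.1, 73.1 and 73.1 in the wild-type and 67.0, 52.8 and 65.0 in the mutants. The groups did not overlap, though mutant replicate 1 was near wild-type replicate 1 (-0.23 ± 0.19). Ncapd2, of condensin I, differed by -0.26. Smc3, a core subunit of cohesin, was at 17.6, 21.8 and 23.3 in the wild-type and at 24.5, 30.7 and 30.4 in the mutants, higher on every mutant array than on any wild-type array. Its difference of 0.45 ± 0.21 was the largest on the higher side (limma adjusted p = 0.68). Smc1a, the partner of Smc3 in cohesin, was at -0.23 ± 0.30 and turned to 0.087 without mutant replicate 1. Rad21 and Stag1, other cohesin subunits on a list of pathway genes outside the name rule, were picked after their values were seen. Both had higher means (0.31 ± 0.22 and 0.34 ± 0.25), as had 56.7% of all probe sets. In Rad21 all mutant values, 107.0, 106.9 and 113.3, lay above the wild-type values of 66.6, 106.4 and 95.5, by a small margin for wild-type replicate 2. That order was seen in 9.18% of all probe sets.

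Genes of the centromere, the spindle checkpoint and mitotic kinases were divided into 6 lower and 5 higher, with a median of -0.050. Aurkb, the kinase that corrects attachments to the spindle, was at 45.0, 39.4 and 50.8 in the wild-type and 32.6, 21.7 and 44.2 in the mutants (-0.51 ± 0.27). Plk1, a kinase of mitotic entry and exit, was at -0.31 and Cdc20, the activator of the anaphase-promoting complex, at -0.23. The checkpoint kinase gene Bub1b was at -0.18. Subunits of the anaphase-promoting complex lay near 0, with Cdc26 at -0.062, Cdc23 at 0.026 and Cdc16 at 0.079, and so did the checkpoint gene Bub3 (0.042) and the centromere histone gene Cenpa (0.020). Of these, Cdc23, Bub3 and Cenpa turned below 0 with median centring and with quantile normalization. Cenpb, a protein of centromeric DNA, was at 74.1, 85.4 and 88.7, and at 82.5, 74.6 and 82.2 (-0.050 ± 0.19). Plk2, a relative of Plk1 that is induced by stress and serum, was at 11.2, 23.5 and 18.3 in the wild-type and 21.7, 20.1 and 24.1 in the mutants (0.38 ± 0.28), with the lowest value on wild-type replicate 1.

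The 3 markers of proliferation and chromatin were all lower. H2ax, a histone H2A variant that is phosphorylated at DNA breaks, was at 76.7, 58.0 and 82.5 in the wild-type and 38.1, 29.8 and 52.9 in the mutants. The groups did not overlap, and all values were above 20. The means were 72.4 ± 12.8 and 40.3 ± 11.7 (SD, n = 3 each), and the difference of -0.87 ± 0.26, a 1.83-fold lower geometric mean, had the smallest p of the 56 genes (limma unadjusted p = 0.00734, adjusted p = 0.591). Top2a, the topoisomerase that untangles mitotic chromosomes, was at 18.3, 22.1 and 20.7, and at 9.62, 12.02 and 23.3 (-0.55 ± 0.31), so that mutant replicate 3 was the highest of all arrays. Mki67, which encodes the antigen Ki-67 that coats mitotic chromosomes, differed by -0.32 ± 0.23. Its values were 27.3, 24.6 and 40.2 in the wild-type and 22.4, 23.6 and 26.3 in the mutants.

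Among the 14 genes with other Cdc or Cdk names the differences lay between -0.27 and 0.30. Cdc42ep2, for an effector of Cdc42, was at 21.3, 22.8 and 19.3 in the wild-type and 16.2, 14.6 and 22.8 in the mutants (-0.27 ± 0.22). Cdc73, of the Paf1 complex of transcription, was at 25.8, 40.8 and 35.1, and at 33.7, 48.2 and 42.3 (0.30 ± 0.24). Cdc42 itself was at 126.4, 178.6 and 160.7, and at 145.7, 169.8 and 186.3 (0.11 ± 0.21), with a turn to -0.026 when wild-type replicate 1 was left out. In all 14 genes the groups overlapped. Over all probe sets the mutant group lay wholly below the wild-type in 3.89% and wholly above it in 9.18%. Lower means were found for Cdc34, a ubiquitin-conjugating enzyme (-0.26), Cdk5, a kinase active mainly in neurons (-0.22), and the chaperone partner Cdc37 (-0.16). The CDKs of transcription, Cdk7 and Cdk9, were at 0.16 and 0.19. Cdc42ep4, Cdc42se1, Cdc42bpg, Cdc42bpb, Cdc123 and Cdc42se2 lay between -0.061 and 0.13.

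**Figure D3:**
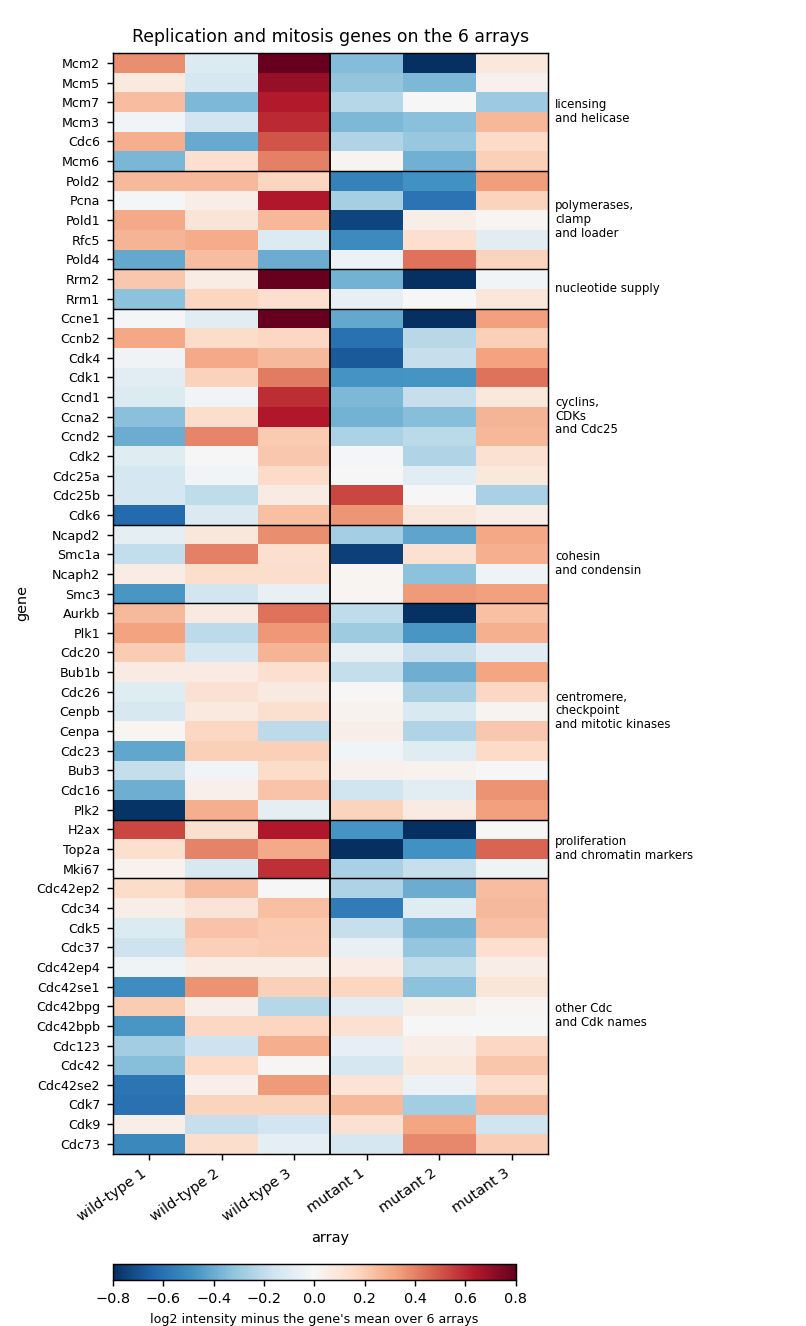
Log2 intensity of each of the 56 genes on each of the 6 arrays, minus the mean of that gene over the 6 arrays, in rows grouped by role (red above, blue below that mean; the colour scale ends at 0.8 in both directions). Wild-type replicate 3 is red over most rows of replication and mitosis genes, mutant replicates 1 and 2 are mostly blue, and mutant replicate 3 is mostly pale red.

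The difference between the groups rested on some arrays more than others. Each gene's log2 value was set against its own mean over the 6 arrays and then against the median of all probe sets on that array. On this scale the median of the 42 replication and mitosis genes was 0.22, 0.016 and 0.18 on wild-type replicates 1 to 3, and -0.26, -0.24 and 0.094 on mutant replicates 1 to 3. Mutant replicate 3 thus stood above wild-type replicate 2. Among these 42 genes, mutant replicates 1 and 2 were both below every wild-type array in 21 (50%), as in 12.4% of all probe sets. Mutant replicate 3 was the highest mutant array in 31 of the 42 (73.8%), against 42.4% of all probe sets. Wild-type replicate 3 was the highest of the 6 arrays in 21 (50%), against 21.1%. These counts were chosen after the values were seen and describe the arrays only.

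**Figure D4:**
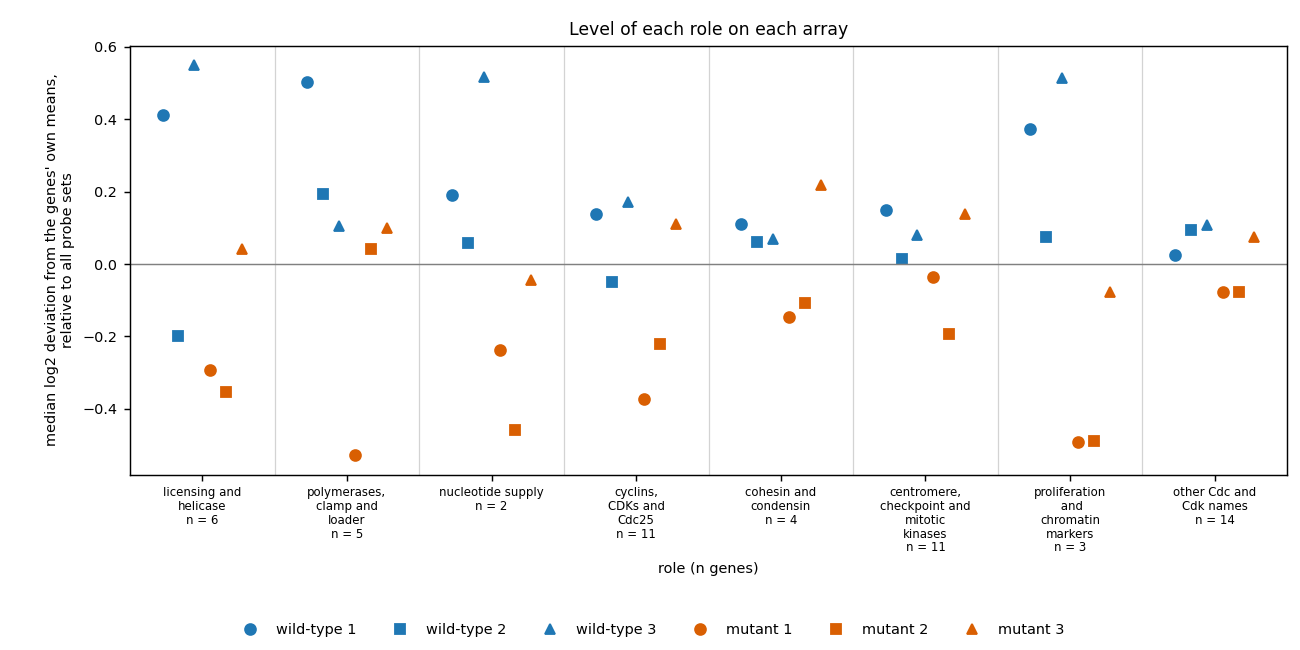
Median log2 deviation of each role from the genes' own means, relative to all probe sets, on each array (blue wild-type, orange mutant, with shapes for replicates 1 to 3). Mutant replicates 1 and 2 lie below all wild-type arrays in each role, at -0.26 and -0.24 over the 42 genes.

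With single arrays left out, the median difference of the 42 genes ranged from -0.38 without mutant replicate 3 to -0.11 without wild-type replicate 3, while that of all probe sets was 0.024 and 0.11 in these fits. Without mutant replicate 3, 11 of the 56 genes had an unadjusted p under 0.05 and a lower mean (19.6%, against 3.57% of all probe sets). These were H2ax, Top2a, Pold2, Rrm2, Mcm2, Aurkb, Cdk1, Ccnb2, Ccne1, Cdk4 and Pcna, with a smallest limma adjusted p of 0.243. When wild-type replicate 3 was left out, H2ax was the 1 gene at this level (1.79%, against 1.23% of all probe sets), and without mutant replicate 2 it was also H2ax alone (1.79%, against 1.11%). Wild-type replicate 1 was the dimmest array; its probe sets had a median log2 difference of -0.30 from the other arrays. Without it 36 of the 42 genes were lower with a median of -0.32, while 55.3% of all probe sets were lower with a median of -0.033. Single arrays moved many of the differences given above by more than 1.5 times. Without wild-type replicate 3, Mcm5 was at -0.19, Mcm7 at -0.12, Pcna at -0.24, Rrm2 at -0.57, Ccne1 at -0.24 and Mki67 at -0.11. Without mutant replicate 1, Ccnb2 was at -0.23 and Top2a at -0.28, and without mutant replicate 2, Aurkb was at -0.24 and Ncaph2 at -0.12. Plk2 was at 0.082 without wild-type replicate 1. The differences of H2ax, Mcm2 and Smc3 moved by less than 1.5 times with any array left out. An offset of 16 before log2 brought H2ax to -0.66, Mcm2 to -0.55 and Smc3, with values near 20, to 0.27. Other dim genes shrank too, with Top2a at -0.26, Pold1 at -0.25 and Ccnb2 at -0.22.

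**Figure D5:**
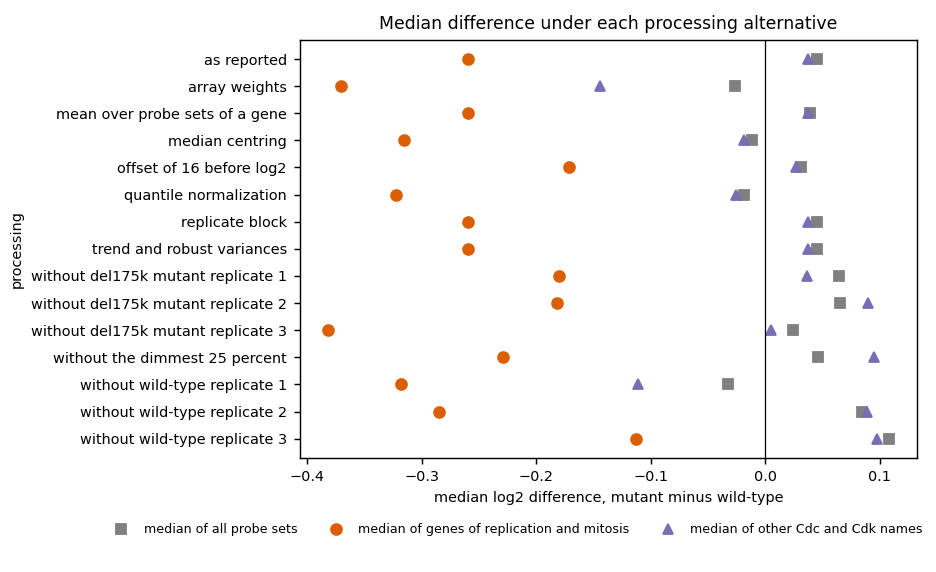
Median log2 difference, mutant minus wild-type, of the 42 replication and mitosis genes, the 14 genes with other Cdc or Cdk names and all probe sets under each way of processing. The replication and mitosis genes lie between -0.38 and -0.11 throughout, and below the median of all probe sets in every row.

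Genes of the same processes that the name rule leaves out were read from lists of replication, mitosis and regulators of the cycle. Of 30 listed replication genes 11 were measured, with 9 lower and 2 higher and a median of -0.30. Tk1, thymidine kinase of the salvage pathway, was at 27.7, 36.2 and 32.4 in the wild-type and 22.9, 22.8 and 21.2 in the mutants (-0.52 ± 0.19). Lig1, the ligase that joins Okazaki fragments, was at 44.9, 49.9 and 76.9, and at 27.1, 38.0 and 44.7 (-0.63 ± 0.27). In neither gene did the groups overlap on these probe sets, and 3.89% of all probe sets had all mutant values below. On a dimmer probe set of Tk1 the difference was -0.42 ± 0.24. There the groups overlapped, with wild-type replicate 2 at 19.1 and mutant replicates 2 and 3 at 20.7 and 20.4. Of 51 listed mitosis genes 10 were measured, with 7 lower, 3 higher and a median of -0.15. Stmn1, which destabilises microtubules, was at 127.0, 171.2 and 154.4, and at 91.0, 89.2 and 161.9 (-0.45 ± 0.27), and Ube2s, of the anaphase-promoting complex, differed by -0.39 ± 0.24.

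Of 28 listed regulators of the cycle, most of which restrain it, 11 were measured. Cdkn1b, for the CDK inhibitor p27, was at 36.2, 39.0 and 41.3 in the wild-type and 65.6, 63.1 and 57.4 in the mutants. The groups were far apart relative to their spread, at 38.9 ± 2.56 and 62.0 ± 4.21 (SD, n = 3 each; 0.67 ± 0.19), but did not pass (limma adjusted p = 0.571). Rbl2, for the pocket protein p130 of the DREAM complex, was at 9.99, 19.9 and 14.7, and at 50.5, 28.1 and 22.3 (1.14 ± 0.34). Ccng2, for cyclin G2, which is linked to cell cycle arrest, was at 11.3, 16.3 and 13.7, and at 31.2, 29.8 and 25.3 (1.08 ± 0.21, limma adjusted p = 0.42). Every probe set of the table reached 20 on at least 3 arrays, and Rbl2 and Ccng2 were under 20 on all wild-type arrays, so the order of their groups was fixed by that bound. Of the other 9 regulators, 5 were higher (55.6%), near the share of all probe sets that were higher (56.7%). The median over the 9 was 0.27, beside 0.045 for all probe sets. Of the 9, only Cdkn1b had all mutant values above all wild-type values (11.1%, near the 9.18% of all probe sets). These 9 were set apart after the values were seen. Cdkn1c, for the inhibitor p57 of differentiating chondrocytes, was at 330.4, 433.6 and 282.2, and at 151.3, 261.5 and 451.9 (-0.39 ± 0.36). Over the 3 lists limma called 0 genes. At an unadjusted p under 0.05 there were 2 lower genes of 32, Tk1 and Lig1 (6.25%, against 1.7% of all probe sets), and 3 higher genes (9.38%, against 5.74%), Cdkn1b and, with their order fixed as above, Rbl2 and Ccng2.

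The samples are mixtures of tissues. Bone and cartilage markers were bright, with summed intensities of 5 bone genes between 11292 and 14159 in the wild-type and between 13071 and 14322 in the mutants, and of 9 cartilage genes between 4089 and 6366 and between 5567 and 6316. Of the bone genes 4 were higher and 1 lower, and of the cartilage genes 7 were higher and 2 lower. Col1a1 and Col1a2 made up most of the bone sum, and Col2a1 most of the cartilage sum. All 6 measured epidermal genes (of 9) had lower means in the mutants, as had 43.3% of all probe sets. Their sum was 1798, 1248 and 47.3 on wild-type replicates 1 to 3 and 75.3, 460.4 and 51.3 on mutant replicates 1 to 3. The sum of 8 muscle genes was 3834, 5959 and 7750, and 4707, 5051 and 6575, with the highest value of each group on replicate 3. Of the muscle genes 6 were lower and 2 higher. All 4 measured osteoclast genes (of 7) had higher means in the mutants, as had 56.7% of all probe sets. Their sums were 594.2 to 1028 in the wild-type and 1177 to 1690 in the mutants. Among single probe sets, 9.18% had all mutant values above. In Ocstamp the groups overlapped, with wild-type replicate 2 at 23.0 and mutant replicate 1 at 21.3. Sums of 6 genes of neutrophil precursors were 115.8 to 250.9 and 178.8 to 205.2, those of 2 erythroid genes 112.4 to 252.3 and 135.3 to 467.6, and those of 3 endothelial genes 73.7 to 135.5 and 101.1 to 138.3. For 2 adipocyte genes the sums were 40.02 to 59.39 and 45.85 to 60.98. The part of these tissues in the levels of the replication and mitosis genes was not tested.

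Promoter words and differences can be set side by side for the 36 replication and mitosis genes with a sequence. The 12 with an E2F word had a median difference of -0.26, with 11 lower, and the 24 without one -0.23, with 15 lower. The 15 with a CHR word, which ranged from Mcm2 to Cdc25b, had a median of -0.31, with 12 lower, and the 21 without one -0.11, with 14 lower. The 24 with CCAAT had a median of -0.27, with 18 lower, and the 12 without it -0.14, with 8 lower. Rrm2, the gene with the lowest difference among those shown above, held CCAAT but no E2F or CHR word in its window. No test was made of these contrasts.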

How the data were processed

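Deposited intensities on a linear scale, 1 per probe set and array, were used as the authors gave them. Per the labels' protocols RNA was amplified and biotin-labelled for Affymetrix arrays. How background was corrected, probes summarised or arrays scaled is not given in the sources used here, and the number of arrays limits the precision. Gene symbols came from the platform annotation of 2016.

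Intensities were taken to log2 without filter or further normalization, and 2 group means were fitted to all 8997 probe sets in limma 3.58.1 (lmFit, then eBayes; R 4.3.3), with two-sided tests, Benjamini-Hochberg adjustment over all probe sets and a threshold of 0.05. In 20 simulated data sets with 200 planted changes, the procedure recovered 37.1% of 2-fold and 85.8% of 4-fold changes, and 4.88% of calls were false. The simulated noise was normal and independent between probe sets, without shifts of whole arrays. These rates may therefore not hold for the real arrays. Python 3.11.15, pandas 2.3.3 and matplotlib 3.10.9 were used for tables and plots.

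The genes and lists were chosen with earlier results of these data known. Values on all arrays were given for genes with an unadjusted p under 0.05 and, in each role, for the 2 of smallest p and the brightest. Of the other pathway lists, genes with an unadjusted p under 0.05 and the 2 of smallest p per list were named. Cdk1, Mki67, Rad21, Stag1 and Cdkn1c were added after their values were seen. Alternatives tried were array weights, an offset of 16 before log2, median centring, quantile normalization, removal of the dimmest 25% of probe sets, robust variances with a trend on intensity, the replicate number as a block, the mean over a gene's probe sets, dropping the genes with other Cdc or Cdk names, and leaving out each array in turn.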

Additional observations from a re-analysis of the deposited data

How the results depend on the processing

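Under all alternatives limma called 0 of the 56 genes. Over all probe sets it called 4 with array weights and from 0 to 15 with single arrays left out, the 15 without mutant replicate 3. The number of the 56 genes at an unadjusted p under 0.05, 3 as reported, was 15 with array weights (14 lower and 1 higher, with 8.85% of all probe sets lower and 6.85% higher at this level) and ranged from 1 to 11 with single arrays left out. Array weights were 2.15 for wild-type replicate 3 and 2.11 for mutant replicate 2, on which these genes were often highest and lowest, and 0.23 for wild-type replicate 1. With the replicate number as a block the count was 7 (6 lower and 1 higher, with 2.62% of all probe sets lower and 4.95% higher). The block changed no call. Same-numbered arrays deviated together in 1 of 3 pairs (correlations -0.11, -0.026 and 0.32), and wild-type replicate 1 correlated best with mutant replicate 2 (0.34). Such deviations also carry the brightness and tissue content of each array, so they cannot show whether the numbers pair littermates. Pairing was an alternative only, and the check gave no reason for or against its use. The median of the 32 other pathway genes, Rbl2 and Ccng2 included, was -0.11 in the fit of the report. It was -0.24 with array weights, -0.22 without the dimmest probe sets, and with single arrays left out lay between -0.21 (wild-type replicate 1) and -0.034 (mutant replicate 2), with -0.19 without mutant replicate 3 and -0.036 without wild-type replicate 3.

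Direction held under every alternative for 35 of the 56 genes, including 25 of the 31 lower and 4 of the 11 higher replication and mitosis genes. It turned with array weights for Rrm1 (-0.12), Cdc25a (-0.10), Cenpa (-0.0066), Cdc23 (-0.18), Bub3 (-0.044), Cdc16 (-0.14), Cdc42bpg (0.12), Cdc42bpb (-0.094), Cdc123 (-0.054), Cdc42se2 (-0.15) and Cdk7 (-0.16). It turned with median centring and with quantile normalization for Rrm1 (-0.042 and -0.034), Cdc25a (-0.053 and -0.077), Cenpa (-0.037 and -0.043), Cdc23 (-0.030 and -0.030) and Bub3 (-0.014 and -0.0020). With single arrays left out it turned in Mcm6 (-0.32 to 0.059), Rrm1 (-0.15 to 0.10), Ccnd2 (-0.37 to 0.028), Cdk2 (-0.17 to 0.015), Cdc25a (-0.065 to 0.081), Cdc25b (-0.042 to 0.35), Smc1a (-0.43 to 0.087), Cdc26 (-0.16 to 0.054), Cenpb (-0.13 to 0.0019), Cenpa (-0.083 to 0.14), Cdc23 (-0.18 to 0.13), Bub3 (-0.042 to 0.13) and Cdc16 (-0.096 to 0.21). The same was seen in Cdc42ep4 (-0.11 to 0.025), Cdc42se1 (-0.30 to 0.13), Cdc42bpg (-0.13 to 0.086), Cdc42bpb (-0.12 to 0.19), Cdc123 (-0.012 to 0.27), Cdc42 (-0.026 to 0.22), Cdc42se2 (-0.12 to 0.34) and Cdk7 (-0.099 to 0.34). The cause was not tested.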
